A study of Mus musculus with 8 samples.

Results

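The MHC class II chains, the molecules that load them and their transactivator were followed in regulatory T cells (Tregs) sorted from bone marrow chimeras. They were chosen by gene symbol: H2-Aa, H2-Ab1, H2-Eb1, H2-DMa, H2-DMb1, H2-DMb2, H2-Oa, H2-Ob, Cd74 and Ciita, which are 10 genes. Of these, 8 had a probe set annotated to 1 symbol, out of 19937 genes with such a probe set, and each had exactly 1. The 2 others, H2-DMb1 and H2-DMb2, share a probe set annotated to both and were not analysed here. IIKO-CD3KO chimeras were CD3ε-/- recipients given IIKO marrow after lethal irradiation, and WT-CD3KO chimeras were the same recipients given WT marrow. CD4+ TCRβ+ CD25+ cells were taken from lymph nodes and spleen 28 days later, with 4 arrays for each kind of chimera. Per the labels, the strain was C57BL/6, the mice were 6 to 8 weeks of age, and Tregs of IIKO chimeras had no TCR contact with class II in peripheral organs. The labels name neither the class II gene disrupted in IIKO donors nor a class II change in the recipients. The probe sets of H2-Aa, H2-Ab1 and H2-Eb1 may therefore lie inside or outside a deleted part, and whether their values read the deletion itself was not tested. The labels also do not say how many mice stand behind an array. The donor marrow and its effects on Treg development cannot be told apart from lost class II contact.

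MHC class II molecules are pairs of an alpha and a beta chain that hold peptides on the surface of B cells, dendritic cells and macrophages, where CD4+ T cells read them. H2-Aa and H2-Ab1 encode the chains of I-A, and H2-Eb1 the beta chain of I-E, whose alpha chain is not made in C57BL/6 mice. In the endoplasmic reticulum the invariant chain, CD74, occupies the peptide groove and guides the pair to endosomes. There H2-DM (H2-DMa with a DMb chain) exchanges the remnant of CD74 for antigen peptides, and H2-O (H2-Oa with H2-Ob) restrains H2-DM. CIITA, encoded by Ciita, switches most of these genes on by docking to RFX, CREB and NF-Y bound at their promoters. Mouse T cells, unlike activated human T cells, are generally held to transcribe little or no class II.

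RFX and NF-Y bind the X box and the Y box, paired sites a short distance upstream of class II genes. RefSeq promoter windows (GRCm38.p6, 250 bases before to 50 after the gene start) were found for 7 of the 10 genes. H2-Ab1 and Ciita had none. Cd74 was left out of the search, so nothing can be said here of its promoter. The stretch with both boxes is shown for the 4 measured genes with a match among those searched. In these the window upstream of the start held GCAAC, a core of the X box, followed within 40 bases by ATTGG, the Y box. Both cores are in capitals, 5′ to 3′ on the strand of the gene.
H2-Aa, chr17:34287852-34287919, minus strand: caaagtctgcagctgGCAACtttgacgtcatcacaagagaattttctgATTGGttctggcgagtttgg
H2-Eb1, chr17:34305761-34305827, plus strand: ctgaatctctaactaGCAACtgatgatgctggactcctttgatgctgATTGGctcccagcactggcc
H2-Ob, chr17:34238803-34238867, plus strand: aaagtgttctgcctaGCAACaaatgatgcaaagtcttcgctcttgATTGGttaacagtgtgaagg
H2-Oa, chr17:34092288-34092355, plus strand: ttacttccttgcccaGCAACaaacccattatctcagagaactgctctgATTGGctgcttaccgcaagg
The cores stood 28 bases apart in H2-Aa and H2-Oa, 27 in H2-Eb1 and 25 in H2-Ob. On either strand, 1.76% of 32851 promoter windows held this pair, 35.2% held GCAAC and 37.4% held ATTGG. A stricter X box core, ACNGATG, followed by ATTGG within 40 bases was in 0.298% of windows. Among the class II genes searched it was found in H2-Eb1, H2-DMb1, H2-DMb2 and the neighbour H2-Eb2, and not in H2-Aa, H2-Oa, H2-Ob or H2-DMa. No window of H2-DMa held the GCAAC pair either. GCAAC was chosen after the windows were seen, and a match is a description of letters, not of a bound site.

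The sorted cells carried the transcripts of their gate in both groups. Cd3e, the CD3 subunit that the recipients lack, averaged 11.87 ± 0.03 in IIKO and 11.90 ± 0.07 in WT arrays (log2 expression, SD, n = 4 arrays each). Foxp3, the defining transcription factor of Tregs, Cd4 and Il2ra, which encodes CD25, were also measured. Foxp3 averaged 10.68 in IIKO and 10.63 in WT arrays, Cd4 10.75 and 10.62, and Il2ra 12.18 and 12.01, with adjusted p of 0.738, 0.289 and 0.211 (limma over all genes, Benjamini-Hochberg). The medians of the arrays were 6.96 to 7.03 (log2), and Pearson's r between any 2 arrays over all genes was 0.990 to 0.995. The array table gives no count of molecules or depth, so the number of arrays limits precision.

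Among the classical chains, all 3 measured genes had lower means in IIKO chimera Tregs, by 0.69 to 0.77 on the log2 scale, and 1 of them, H2-Eb1, passed limma's test. The others differed from it in the spread of the IIKO arrays. As these are bulk samples, fewer cells of a type and less RNA per cell cannot be told apart for any of these transcripts.

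H2-Eb1 was at 7.58, 7.56, 7.75 and 7.52 in IIKO arrays 1 to 4, against 8.25, 8.13, 8.28 and 8.48 in WT arrays 1 to 4 (log2 expression). Each IIKO array lay below every WT array, the highest IIKO value being 7.75 and the lowest WT value 8.13. The means were 7.60 ± 0.10 in IIKO and 8.29 ± 0.15 in WT arrays (SD, n = 4 each). H2-Eb1 fell by 0.69 ± 0.08 on the log2 scale (SE; 95% confidence interval -0.87 to -0.50), and its limma adjusted p was 0.00746. It passed in each of the 17 alternatives, with adjusted p from 0.00589 to 0.0457.

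H2-Aa was at 7.26, 7.55, 8.06 and 6.82 in IIKO arrays 1 to 4, against 8.30, 8.27, 7.99 and 8.20 in WT arrays 1 to 4. IIKO arrays 1, 2 and 4 were below all WT arrays, while IIKO array 3 lay among them. The IIKO arrays spanned 1.24 log2 units and the WT arrays 0.31. The difference of -0.77 ± 0.21 (SE; 95% confidence interval -1.24 to -0.30) had an adjusted p of 0.166 in limma. H2-Ab1 gave the same picture, at 7.08, 7.65, 8.27 and 7.12 in IIKO arrays 1 to 4, against 8.39, 7.87, 8.38 and 8.30 in WT arrays 1 to 4. Again IIKO array 3 was within the WT range, and the other IIKO arrays were below it. Its difference was -0.71 ± 0.24 (SE; 95% confidence interval -1.24 to -0.17; limma adjusted p = 0.207).

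**Figure D1:**
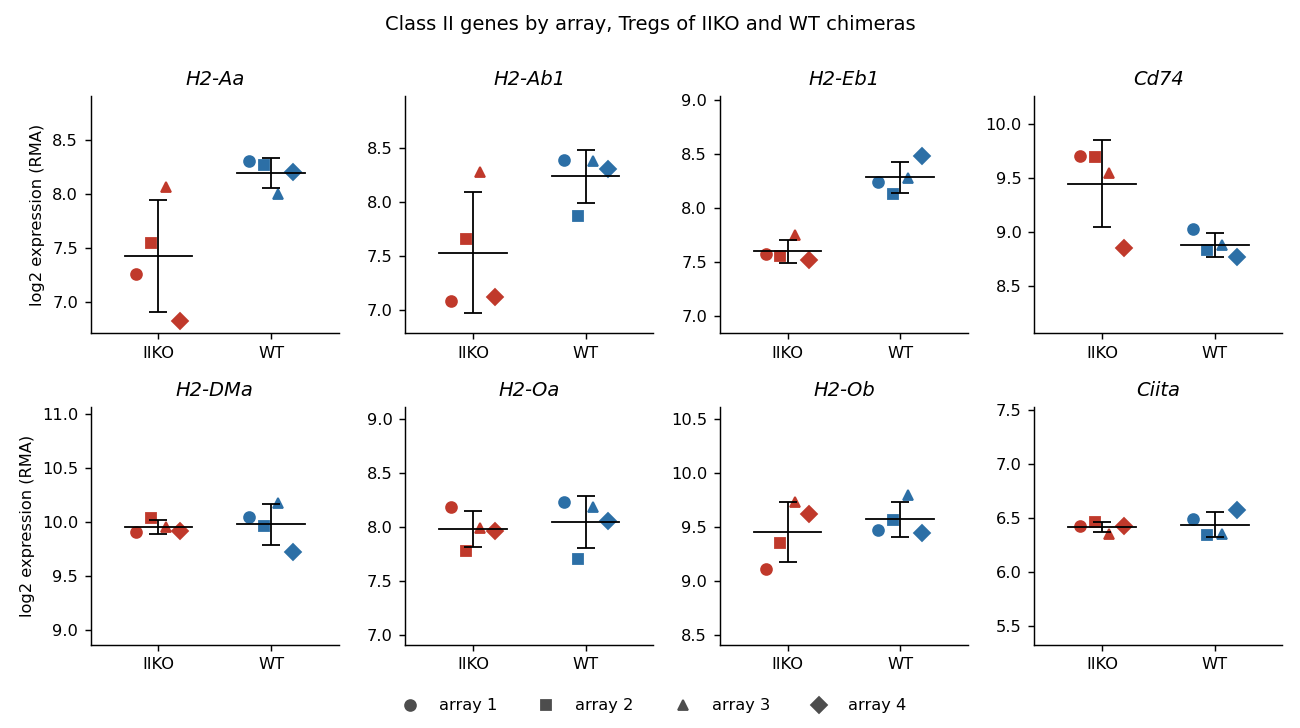
Log2 expression of the 8 measured class II genes in each array, IIKO left and WT right, with symbols for arrays 1 to 4, horizontal bars for means and whiskers for the SD (n = 4 each). All panels span the same number of log2 units. H2-Eb1 has no overlap between groups, H2-Aa and H2-Ab1 have IIKO array 3 (triangle) among the WT arrays, and Cd74 has IIKO array 4 (diamond) among them.

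Over all genes, 0.286% passed the test, 0.125% as lower and 0.161% as higher in IIKO chimeras. Of the 8 class II genes measured, 1 was lower (H2-Eb1), 0 were higher and 7 did not pass. Arrays centred on their medians changed the overall split from 32 higher and 25 lower genes to 58 and 23. With limma's unadjusted p under 0.05, 3 of the 8 class II genes were lower (H2-Aa, H2-Ab1 and H2-Eb1) and 1 was higher (Cd74), against 12.0% and 5.27% of all genes. The IIKO arrays were all below the WT arrays for 1 of the 8, against 7.69% of all genes, and all above for 0, against 2.83%. The median difference of the 8 was -0.09, against -0.04 over all genes, and 7 of the 8 differences were negative, against 62.9% of all genes.

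IIKO array 3 was set against the other 3 IIKO arrays. It stood above their mean by 0.86 for H2-Aa and by 0.99 for H2-Ab1 (log2 units). A distance that large from the other 3 was found for 0.206% and 0.125% of all genes. For H2-Eb1 it was 0.20, reached by 15.9% of genes, and for H2-Ob 0.37, reached by 3.44%. H2-DMa, H2-Oa and Ciita lay within 0.09 of the mean of the other arrays. Other IIKO arrays also stood apart. IIKO array 4 was at -0.80 from the mean of the other 3 for H2-Aa, a distance reached by 0.181% of genes. For H2-Ab1, IIKO arrays 1 and 4 were at -0.60 and -0.55, distances reached by 0.712% and 0.813% of genes. Without IIKO array 3, which was singled out because it lay within the WT range for both chains, the differences were -0.98 ± 0.15 for H2-Aa and -0.95 ± 0.17 for H2-Ab1 (SE), still not past the test (limma adjusted p = 0.0578 and 0.087). In that comparison 0.176% of all genes passed. IIKO array 3 was the highest IIKO array for both chains, so the larger differences follow from leaving it out and add no support.

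Cd74, the invariant chain, differed in the opposite direction. It was at 9.71, 9.70, 9.55 and 8.86 in IIKO arrays 1 to 4, against 9.03, 8.84, 8.88 and 8.77 in WT arrays 1 to 4. IIKO arrays 1 to 3 were above every WT array, and IIKO array 4 lay within the WT range. IIKO array 4 stood at -0.79 from the mean of the other 3, a distance that 0.191% of all genes reached. The difference was 0.57 ± 0.17 (SE; 95% confidence interval 0.20 to 0.94; limma adjusted p = 0.174). Without IIKO array 4 it was 0.77 ± 0.08 and passed (limma adjusted p = 0.00589), where 0.206% of all genes passed. That array was the 1 IIKO array within the WT range, so this call follows from which array was left out and adds no support. Of the 17 alternatives, this was the 1 in which Cd74 passed.

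The opposite directions of Cd74 and the chains can be read from the difference between their log2 values within each array. The 3 pairs were chosen with these directions known and all share Cd74, so the values are a description, with no test. Cd74 minus H2-Aa was 2.45, 2.15, 1.49 and 2.03 in IIKO arrays 1 to 4, against 0.73, 0.57, 0.89 and 0.57 in WT arrays 1 to 4. No IIKO array overlapped the WT arrays, IIKO arrays 3 and 4 included. The groups differed by 1.34 for Cd74 against H2-Aa, by 1.28 against H2-Ab1 and by 1.26 against H2-Eb1, without overlap in any pair. H2-Eb1 had no overlap by itself, and the share of all gene pairs without overlap was not counted. For H2-Ab1 the lowest IIKO value was 1.28 and the highest WT value 0.96.

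**Figure D2:**
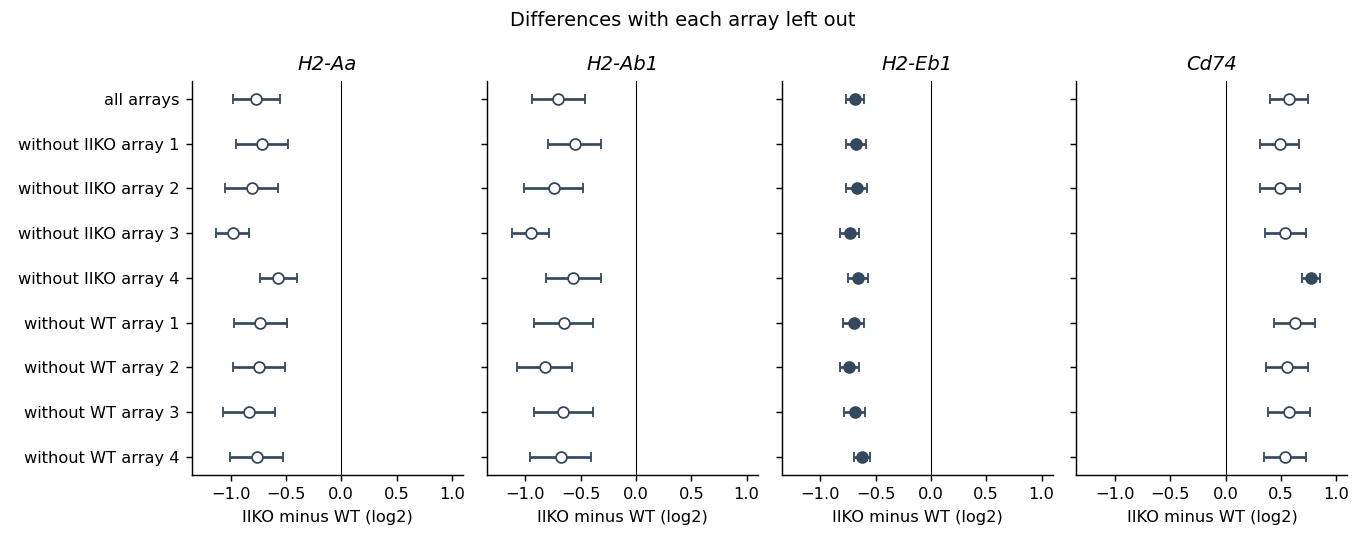
Difference of H2-Aa, H2-Ab1, H2-Eb1 and Cd74 between groups (IIKO minus WT, log2) with all arrays and with each array left out, with bars of 1 SE. Filled points passed limma's test: H2-Eb1 did so in every row, Cd74 without IIKO array 4, and H2-Aa and H2-Ab1 in none.

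The genes of peptide exchange and of class II control had differences close to 0. H2-DMa, the alpha chain of the peptide exchange factor, was at 9.90, 10.04, 9.95 and 9.91 in IIKO arrays 1 to 4, against 10.05, 9.96, 10.17 and 9.72 in WT arrays 1 to 4. The IIKO arrays lay inside the WT range, and the difference was -0.02 (95% confidence interval -0.22 to 0.18). H2-Oa, the alpha chain of H2-O, was at 8.19, 7.78, 7.99 and 7.96 in IIKO arrays, against 8.24, 7.70, 8.19 and 8.06 in WT arrays. Its IIKO arrays too lay inside the WT range (difference -0.06, interval -0.33 to 0.21). H2-Ob, the beta chain, was at 9.11, 9.35, 9.73 and 9.62 in IIKO arrays, against 9.47, 9.56, 9.79 and 9.44 in WT arrays. IIKO arrays 1 and 2 were below the WT range and the others within it (difference -0.11, interval -0.41 to 0.18). Ciita, the transactivator, was at 6.43, 6.47, 6.36 and 6.42 in IIKO arrays, against 6.49, 6.34, 6.35 and 6.58 in WT arrays. The IIKO arrays again lay inside the WT range (difference -0.02, interval -0.17 to 0.13). The signs of Ciita and H2-DMa turned to 0.03 each with arrays centred on their medians, and that of Ciita to 0.05 after a further quantile normalization. The limma adjusted p of these 4 genes ran from 0.667 to 0.912.

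In the order of genes along chromosome 17, H2-Ab1, H2-Aa and H2-Eb1 are direct neighbours among those measured, with H2-Ob on one side and H2-Eb2 on the other. Of the 8 other genes of the class II region on the list, 1 was higher, 0 were lower and 7 did not pass, with a median of 0.02. Over all genes, 0.161% passed as higher and 0.125% as lower. With limma's unadjusted p under 0.05 counted, 2 were higher, Btnl2 and Brd2, and 0 lower, against 5.27% and 12.0% of all genes. The higher one was Btnl2, a butyrophilin-like membrane protein at the far side of H2-Ea, at 7.61, 7.74, 7.98 and 7.83 in IIKO arrays 1 to 4, against 7.02, 6.81, 6.84 and 7.02 in WT arrays 1 to 4. The IIKO arrays were all above the WT arrays, as for 2.83% of all genes, and Btnl2 rose by 0.87 ± 0.09 (log2, SE; limma adjusted p = 0.00248). It passed in each of the 17 alternatives. H2-Eb2, a class II beta chain gene next to H2-Eb1, averaged 6.23 ± 0.14 in IIKO and 6.39 ± 0.11 in WT arrays (SD, n = 4 each; limma adjusted p = 0.34). H2-Ea, which RefSeq lists as a transcribed pseudogene in C57BL/6, differed by -0.05. Between H2-DMa and H2-Ob lie Psmb9, Tap1, Psmb8 and Tap2, which serve class I peptide supply, with differences from -0.10 to 0.14. Brd2, a chromatin reader, differed by 0.12 ± 0.05 (SE; adjusted p = 0.282).

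**Figure D3:**
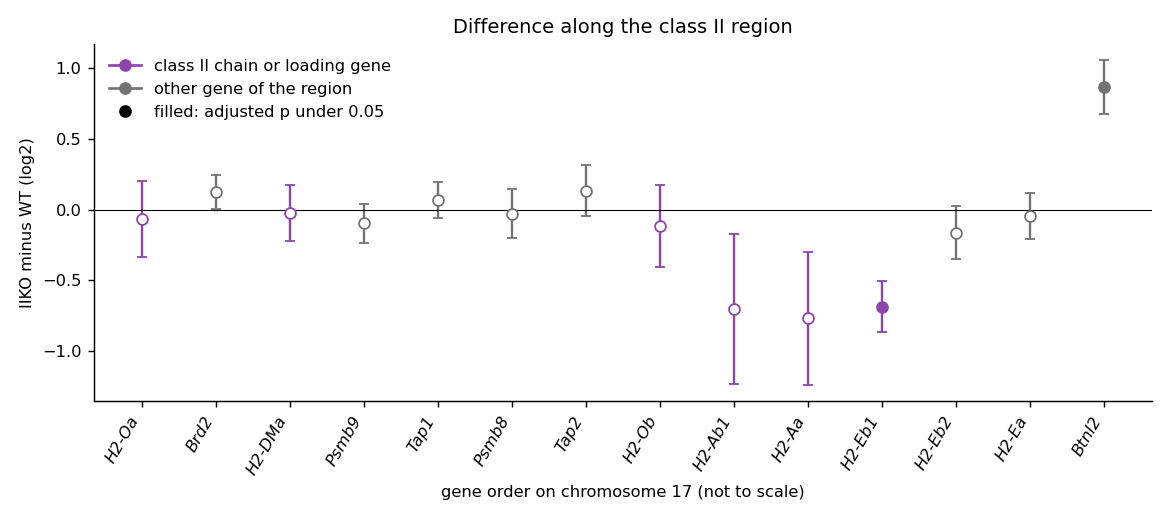
Difference between groups (IIKO minus WT, log2, with 95% confidence intervals) of 14 measured genes in their order along the class II region of chromosome 17, not to scale. Filled points passed limma's test: H2-Eb1 is below 0 and Btnl2 above it, while H2-Ab1 and H2-Aa lie at the level of H2-Eb1 with wider intervals.

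The transcription factors of class II genes and of Ciita, a repressor of Ciita included, had 0 of 11 measured genes past the test. Their median difference was 0.08. With limma's unadjusted p under 0.05 counted, 2 were higher and 1 was lower, against 5.27% and 12.0% of all genes. Rfxank, an RFX subunit, was at 8.22, 8.32, 8.24 and 8.19 in IIKO arrays, against 8.41, 8.40, 8.63 and 8.60 in WT arrays. The IIKO arrays were all below the WT arrays, as for 7.69% of all genes, with a difference of -0.27 ± 0.07 (SE; limma adjusted p = 0.157). Nfya, a subunit of NF-Y, differed by 0.18 ± 0.07 and Prdm1, which encodes the Ciita repressor Blimp-1, by 0.24 ± 0.10 (adjusted p = 0.239 and 0.265).

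Endosomal processing genes also had 0 of 12 past the test, with a median of 0.06. By limma's unadjusted p under 0.05, 1 was higher and 1 lower, against 5.27% and 12.0% of all genes. Ifi30, the thiol reductase GILT that unfolds antigens, was at 7.84, 8.50, 8.30 and 8.01 in IIKO arrays 1 to 4, against 8.79, 8.50, 8.72 and 8.61 in WT arrays 1 to 4. IIKO array 2 and WT array 2 nearly met, and the IIKO arrays were all below the WT arrays, as for 7.69% of all genes (difference -0.49 ± 0.13, SE; limma adjusted p = 0.16). Ctsl, a cysteine protease that trims the invariant chain in thymic epithelium, was at 8.33, 8.35, 7.60 and 7.32 in IIKO arrays, against 7.29, 6.94, 7.23 and 7.35 in WT arrays. IIKO arrays 1 to 3 were above the WT range and IIKO array 4 within it, as for Cd74 (difference 0.70 ± 0.22; adjusted p = 0.189). Marchf8, a ubiquitin ligase that acts on class II, differed by -0.16 ± 0.07 (adjusted p = 0.295).

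Receptors around class II and CD74 had 0 genes past the test. Of the 2 class II binding receptors, 1, Lag3, was higher at limma's unadjusted p under 0.05, as were 5.27% of all genes. Lag3, the inhibitory receptor that binds class II on T cells, was at 9.30, 9.58, 9.38 and 9.49 in IIKO arrays, against 9.16, 8.66, 9.05 and 9.16 in WT arrays. The IIKO arrays were all above the WT arrays, as for 2.83% of all genes (difference 0.43 ± 0.11, SE; limma adjusted p = 0.16). Cd4, the other class II binding receptor on the list, differed by 0.13 ± 0.06. CD74 is also the receptor for MIF, and of the 6 genes of that list 0 passed, also at an unadjusted p under 0.05, with a median of -0.11. Cd44, its signalling partner, differed by 0.23 ± 0.10, Mif by -0.17 ± 0.08, and Ackr3, a decoy chemokine receptor that also binds MIF, by -0.14 ± 0.08 (adjusted p = 0.298, 0.319 and 0.379).

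Markers of cells that carry class II were read in the same arrays. All these lists had 0 genes past limma's test. With limma's unadjusted p under 0.05 counted, 1 macrophage marker was higher, 2 dendritic cell markers and 2 B cell markers were lower, 0 plasma cell markers differed, and 1 stromal marker was higher and 3 lower. Over all genes, 5.27% were higher and 12.0% lower by this count. The 14 macrophage and monocyte markers averaged 6.68, 6.68, 7.09 and 6.57 in IIKO arrays 1 to 4, against 6.60, 6.62, 6.53 and 6.83 in WT arrays 1 to 4. IIKO array 3 was the highest of all arrays, and it held the highest value of 9 of the 14 genes. These included Lyz2, at 6.70 in IIKO array 3 and 5.44 to 6.10 in the other IIKO arrays, and Adgre1, a surface receptor of mature macrophages, at 6.64 and 5.59 to 5.86 in the same order (both named after their values were seen). Vcam1, which splenic macrophages display, was at 8.25 in IIKO array 3 and at 7.32 to 7.50 in the other IIKO arrays. Cd68 was at 8.31 in IIKO array 3, and at 7.75 to 8.16 in the other IIKO arrays. Mpeg1, C1qb, Cd14, Itgam and Slc40a1 were highest in another array. Mpeg1 was at 7.76 in IIKO array 3 and 8.00 in WT array 2. Slc40a1 was at 6.45 in IIKO array 3 and 6.67 in IIKO array 1. The share of all genes that were highest in IIKO array 3 was not counted. Between the groups, Vcam1 differed by 0.37, Cd68 by 0.21, Mpeg1, a pore protein of phagocytes, by 0.05, and Slc40a1, the iron exporter ferroportin, by 0.26 (limma adjusted p = 0.213 for Slc40a1). IIKO array 3, the highest for the macrophage list, was the array singled out above for its H2-Aa and H2-Ab1 values. WT array 4, second in this list, was the highest WT array for H2-Eb1 (8.48), but not for H2-Aa (8.20) or H2-Ab1 (8.30). IIKO array 3 was also the highest IIKO array for H2-Eb1, at 7.75. The part of these cells in the class II values was not tested.

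Dendritic cell markers did not share that order. The mean of their 10 genes ran from 6.47 to 6.55 in IIKO arrays and from 6.57 to 6.65 in WT arrays, with IIKO array 4 lowest. Each IIKO array was below every WT array for this mean, and how often a mean of 10 genes does so was not counted. Of the 10 genes, 1, Siglech, was separated in this way, as were 7.69% of all genes. Their differences were negative for 7 of the 10, against 62.9% of all genes. Siglech, a marker of plasmacytoid dendritic cells, averaged 6.44 ± 0.07 in IIKO and 6.63 ± 0.08 in WT arrays, a difference of -0.19 (SD, n = 4 each; limma adjusted p = 0.199), and Clec10a differed by -0.22 (adjusted p = 0.231). Bst2, also made by other cells under interferon, differed by -0.27, and Ccr7, which T cells express too, by 0.07. B cell markers (11 measured) averaged 5.97 to 6.05 in IIKO and 5.97 to 6.14 in WT arrays. Fcer2a, which encodes CD23, differed by -0.26 and Ebf1, a B lineage factor, by -0.22 (adjusted p = 0.208 and 0.251). Cd79b and Cd22 differed by -0.19 and 0.03. The 6 plasma cell markers ran from 6.53 to 6.65 in IIKO and 6.56 to 6.65 in WT arrays, and the largest difference was 0.11. Xbp1 differed by 0.11, Sdc1 by -0.07 and Derl3 by -0.04. Stromal markers (7 measured) ran from 7.36 to 7.61 in IIKO and 7.55 to 7.62 in WT arrays, with IIKO array 3 lowest. Among them Ccl19, a chemokine of lymph node stroma and dendritic cells, differed by -0.38, Col1a1 by -0.15 and Pecam1, an endothelial marker that T cells also carry, by 0.26 (adjusted p from 0.212 to 0.25). The 10 T cell and Treg markers averaged 11.70 to 11.78 in IIKO and 11.69 to 11.76 in WT arrays. By limma's unadjusted p under 0.05, 2 were higher, Il2ra and Ctla4 (0.17 and 0.12), against 5.27% of all genes. For 3 of the 10, Il2ra and Ctla4 among them, the IIKO arrays were all above the WT arrays, as for 2.83% of all genes. Cd3d and Cd3g, subunits of CD3, differed by -0.07 and -0.06. Background was not examined, so none of these markers can be called absent, and their part in the class II differences was not tested.

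**Figure D4:**
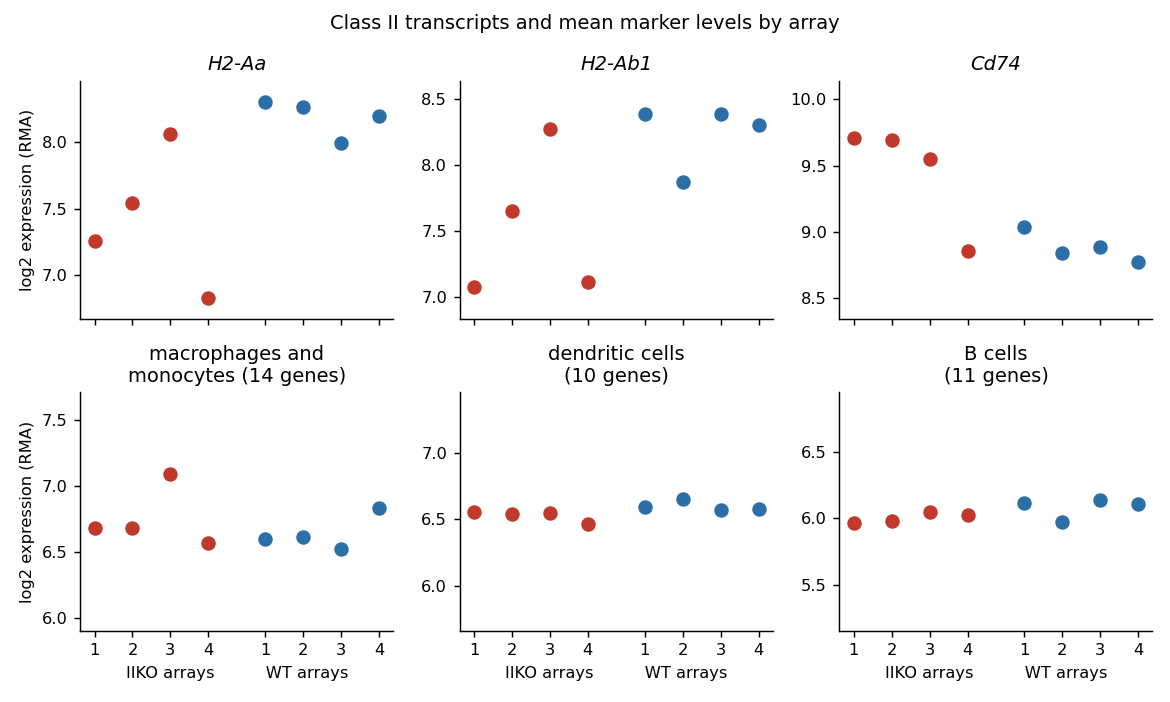
Log2 expression of H2-Aa, H2-Ab1 and Cd74 (top) and mean log2 expression of 3 marker lists (bottom) in each array, IIKO arrays 1 to 4 left and WT arrays 1 to 4 right. All panels span the same number of log2 units. IIKO array 3 is highest for the macrophage and monocyte list, at 7.09. The dendritic cell and B cell lists span less than that list, and the dendritic cell list is lower in every IIKO array than in every WT array.

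The genes whose profile over the 8 arrays was closest to a class II gene were found by the root-mean-square difference after each gene's own mean was subtracted. This measure uses the same arrays as the comparison and is a description. H2-Aa was nearest to H2-Ab1, at 0.24 log2 units, against a spread of its own of 0.51. H2-Eb1 was 0.30 from H2-Aa and 0.32 from H2-Ab1, and Cd74 was 0.72 from H2-Aa and 0.74 from H2-Ab1, the widest distances among the 8 genes. Outside the class II genes, Lrrc32, which encodes the Treg surface protein GARP, was closest to H2-Aa, at 0.26, followed by Arhgef5 (0.28) and Gsta4, a glutathione transferase (0.29). For H2-Eb1 they were Apobr, an apolipoprotein B receptor (0.16), Uqcr10, a subunit of respiratory complex III (0.16), and Fsd2 (0.17). For Cd74 they were Znrd1as, an antisense RNA gene on chromosome 17 (0.10), Bod1, which acts in chromosome segregation (0.13), and Lilr4b, an inhibitory leukocyte receptor (0.14). In IIKO arrays 1 to 4 Lilr4b was at 10.75, 10.44, 10.57 and 9.85, against 9.85, 9.66, 10.07 and 9.75 in WT arrays 1 to 4. IIKO array 4 again lay within the WT range.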

How the data were processed

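RNA of 8 samples was hybridised to 1 Affymetrix array each, and samples were grouped by their titles. The authors deposited log2 expression per probe set, for which the submitters' processing notes name affy and RMA; no version is given in the sources used here. The RMA method equalises array distributions and shrinks differences near background, which was not examined. Of 34760 probe sets, 21640 had 1 symbol; for genes with several, the one with the highest mean was kept, leaving 19937 genes. Positions in gene order and promoters came from RefSeq (GRCm38.p6).

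IIKO minus WT was fitted by lmFit and eBayes of limma 3.58.1 (R 4.3.3, 6 residual degrees of freedom), two-sided, Benjamini-Hochberg over all genes, threshold 0.05. The p-values cover the spread between these 8 samples, whose independence the labels give only as biological replicates. Named were all class II genes, the 3 members with the smallest p of each pathway list, the 2 with the smallest p and the 2 with the highest mean of each marker list, genes past the threshold, the 3 nearest profiles of H2-Aa, H2-Eb1 and Cd74, and checks of the sort. An exact permutation test of Cd74 against 3 chains was planned and run, but its p is not given, since the pairs were chosen with their directions known. Members and lists were chosen with earlier results of these data known. Alternatives were other scalings, filters, variance models, probe set rules, the replicate number as a block, a threshold of 0.01, and each array left out. Deviations of same-numbered arrays correlated at 0.04, -0.01, -0.07 and 0.22, so the numbers were not taken to pair them. Figures used matplotlib 3.10.9.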

Additional observations from a re-analysis of the deposited data

Results flagged for a closer look

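In 134 groups of 4 values (55 genes and 12 list means in each group of arrays), 12 had a highest or lowest array set apart from the other 3 by more than Dixon's critical value for 4 samples; chance gives about 1 in 20. Among the class II genes this was H2-Ab1 in WT array 2, at 7.87 against 8.30 to 8.39 in the other WT arrays. In IIKO array 1, Ebf1 (5.15), Cd79b (7.22) and Cd3e (11.83) and the mean of the plasma cell markers (6.53) were set apart as low. In IIKO array 4, Gsta4 (8.87), Bod1 (6.23) and the mean of the dendritic cell markers (6.47) were low, and Sdc1 (6.19) was high. In WT arrays, Marchf8 was high in array 3 (6.41), Vcam1 was high in array 4 (7.64), and the mean of the B cell markers was low in array 2 (5.97). Among WT arrays, H2-Ab1 and the B cell marker mean were both lowest in array 2, and any link was not tested. H2-Aa and H2-Ab1 in IIKO array 3, and Cd74 in IIKO array 4, did not exceed the critical value.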

How the results depend on the processing

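H2-Eb1 and Btnl2 kept direction and call in all 17 alternatives, and H2-Aa and H2-Ab1 stayed lower and uncalled in all 17, from -0.98 to -0.57 and from -0.95 to -0.56. Not all of these could have moved the differences. Each of these genes had 1 probe set, so the probe set rules, the block and the filter left its difference as it was. A threshold of 0.01 could not add a call. The number of class II genes called was 1 to 2 with an array left out, 2 without IIKO array 4. Differences near 0 changed sign: Ciita to 0.052 after a further quantile normalization and 0.029 with arrays centred on their medians (-0.054 to 0.025 with an array left out), and H2-DMa to 0.028 when centred (-0.11 to 0.042 with an array left out). H2-Oa ran from -0.18 to 0.0018 with an array left out. Ccl19 was called when all probe sets of a gene were averaged, making 1 stromal marker. Cd74 against H2-Aa, H2-Ab1 and H2-Eb1 differed by 1.34, 1.28 and 1.26 with all arrays, which the replicate block cannot change. With an array left out these differences were 1.20 to 1.52, 1.04 to 1.49 and 1.15 to 1.43. Over all genes 57 passed, 31 with the replicate block, 21 at a threshold of 0.01 and 32 to 50 with an array left out. The block changed no call of a class II gene. Ciita lay outside the brighter 9969 genes and has no value there. Leaving out an array leaves 7, and the cause of these changes was not tested.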
